A study of Bos taurus with 9 samples.

Results

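The trophectoderm (TE) is the outer epithelium of the blastocyst, and its identity rests on a set of transcription factors (TFs). The set examined here holds 10 genes, *CDX2*, *GATA2*, *GATA3*, *TFAP2A*, *TFAP2C*, *KLF5*, *EOMES*, *HAND1*, *MSX2* and *DLX3*, chosen by gene symbol as known regulators of TE or its trophoblast descendants. All 10 were rows of the deposited table of 21512 genes. They were measured in 9 individual bovine blastocysts collected at day 8 (D8) after in vitro fertilization, 5 wild type (WT) and 4 *TEAD4* knockout (KO). WT embryos came from oocytes microinjected with *Cas9* mRNA alone. KO embryos came from oocytes that also received a guide RNA against the fourth exon of *TEAD4*, and carried only alleles with frame-disrupting indels, which may differ from embryo to embryo. All oocytes came from slaughterhouse ovaries and were fertilized with semen of a single bull, and each library is 1 embryo. Libraries are named as in the table, WT_1 to WT_5 and, for the KO embryos, TE_1 to TE_4.

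In the mouse, TEAD4 is the nuclear partner of YAP1 in outer cells and lies upstream of *Cdx2* and *Gata3*, and loss of *Tead4* prevents blastocyst formation. CDX2, a caudal-type homeodomain protein, then maintains the TE epithelium, while GATA2 and GATA3 (zinc finger proteins) and TFAP2A and TFAP2C (AP-2 family) act together with it on trophoblast genes. KLF5 is a zinc finger factor of the early TE and inner cell mass (ICM), EOMES is a T-box factor required in the mouse TE, and HAND1, MSX2 and DLX3 belong to the later trophoblast and placenta. The question here was at what level each of these genes was transcribed in bovine blastocysts, how far embryos differed from each other, and whether KO embryos differed from WT.

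Values are in TPM, a measure of transcript abundance that is corrected for transcript length and sums to 1000000 in each library. Read numbers cannot be recovered from TPM, which leaves the depth behind each gene unknown and allows no counting interval. Between 14776 and 16678 genes were above 0 TPM per library. Transcripts of *TEAD4* were measured in every library, at 18.0 to 54.3 TPM in WT and 12.5 to 42.8 TPM in KO (two-sided exact permutation p = 0.286), and TPM does not show whether they carry an indel. The labels name the material as ICM and TE cells together. The keratins *KRT8* and *KRT18* of the TE epithelium were at 2721 TPM or more and at 1108 TPM or more in every embryo. *POU5F1*, the pluripotency factor, was at 773 TPM or more. The paper states that *POU5F1* and *CDX2* do not exclude each other in bovine embryos, so *POU5F1* does not mark the ICM alone. *SOX2*, the paper's ICM marker, was at 3.89 to 90.4 TPM in WT and 2.26 to 42.4 TPM in KO. *NANOG* was at 0.127 to 262 TPM in WT and 2.70 to 53.3 TPM in KO. The cumulus cell genes *HAS2*, *PTX3* and *VCAN* reached at most 0.520, 0.370 and 0.151 TPM, while the 16 cumulus and granulosa genes together summed to 78.8 to 268 TPM in WT and 13.6 to 131 TPM in KO, of which *CYP11A1* made up 52.7 to 247 TPM and 4.57 to 96.7 TPM. Of the same 16 genes, *FSHR* was at 12.1 to 26.8 TPM in WT and 1.36 to 23.3 TPM in KO. *GJA1* and *CYP19A1* reached at most 3.87 and 3.05 TPM. The embryos' sex and any batch are not given in the sources used here. In whole embryos, a lower number of cells of a type and less RNA per cell cannot be told apart.

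The members spanned the range from absent to highly abundant, with the same genes at the top and at the bottom in most embryos. *KLF5*, *TFAP2C* and *MSX2* held the first 3 ranks in every embryo but WT_5, where *GATA2* exceeded *TFAP2C*, and *HAND1* and *EOMES* the last in every embryo but TE_4, where *HAND1* exceeded *TFAP2A*. *KLF5*, *TFAP2C* and *MSX2* lay at the 93.1, 90.7 and 89.6 percentile of the WT medians of all 14599 genes tested. *GATA2* lay at the 86.0, *CDX2* at the 77.8 and *GATA3* at the 77.0 percentile. *TFAP2A* and *DLX3* were close to the middle, at the 57.2 and 56.0 percentile. *HAND1* lay at the 6.58 percentile, and *EOMES* did not reach a median of 0.1 TPM and was not tested between genotypes.

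**Figure D1:**
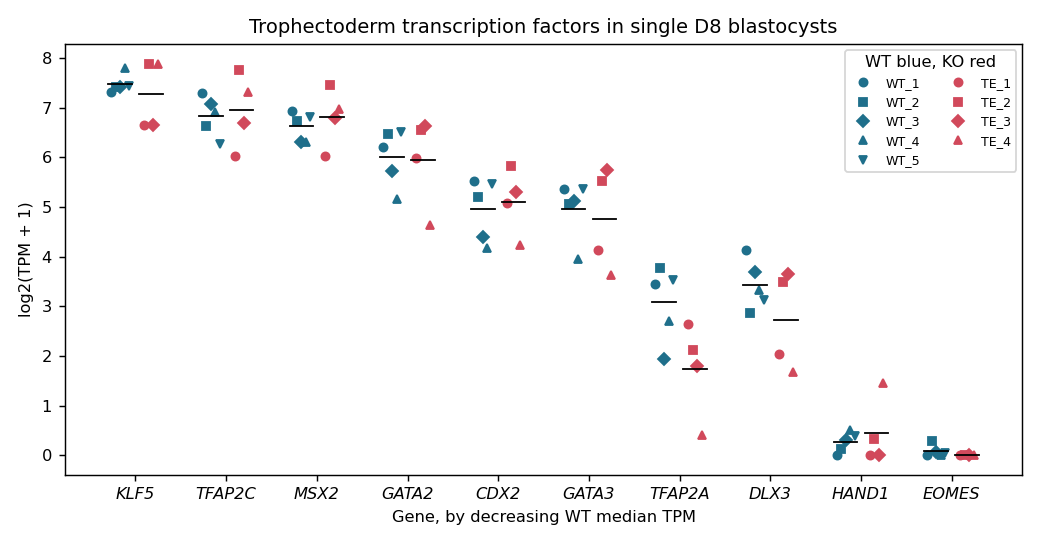
Level of each member in every blastocyst as log2(TPM + 1) on the y axis, with genes on the x axis in order of decreasing WT median, WT embryos in blue, KO embryos in red, a symbol for each embryo number and a black line at the mean of each genotype. WT and KO points overlap in every gene, and TE_4 is the lowest of all embryos for *GATA2*, *GATA3*, *TFAP2A* and *DLX3*.

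The values of *CDX2*, the homeodomain factor of the TE, were 44.7, 35.7, 20.0, 17.1 and 43.2 TPM from WT_1 to WT_5, and 32.6, 55.2, 38.3 and 17.9 TPM from TE_1 to TE_4, an order of embryos kept for all genes below. Only TE_2 was outside the WT range, above it, and the lowest value was that of a WT embryo, WT_4. The log2 fold change (KO minus WT, on log2(TPM + 1), as for all those below) was 0.15 with a 95% interval from -0.68 to 0.99 (limma, adjusted p = 0.985).

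*GATA2* was at 72.5, 87.2, 52.1, 34.6 and 89.9 TPM in WT and at 61.9, 92.8, 97.6 and 23.7 TPM in KO embryos. *GATA3*, its paralogue, was at 40.2, 32.2, 33.9, 14.4 and 39.8 TPM in WT and at 16.5, 45.2, 52.9 and 11.4 TPM in KO embryos. In both genes 2 KO embryos, TE_2 and TE_3, were above every WT embryo and 1, TE_4, was below, while the KO mean lay near the WT mean. The log2 fold change was -0.066 for *GATA2* (95% interval -0.99 to 0.86, adjusted p = 0.994 from limma) and -0.20 for *GATA3* (-1.22 to 0.81, adjusted p = 0.984 from limma). Within an embryo *GATA2* exceeded *GATA3* in 9 of 9 embryos, by 1.54 to 2.71 times in WT and 1.85 to 3.75 times in KO.

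Of the AP-2 genes, *TFAP2C* had a KO mean above and *TFAP2A* a KO mean below that of WT. *TFAP2C*, which is active from cleavage stages on, was at 156.8, 97.3, 134, 118.6 and 75.6 TPM in WT and at 64.4, 214, 102 and 158 TPM in KO embryos, with TE_1 below and TE_2 and TE_4 above every WT embryo. Its log2 fold change was 0.11 (95% interval -0.64 to 0.86, adjusted p = 0.987 from limma). *TFAP2A* was at 9.84, 12.6, 2.85, 5.55 and 10.6 TPM in WT and at 5.21, 3.32, 2.46 and 0.321 TPM in KO embryos. TE_3 and TE_4 were below every WT embryo, and WT_3 was the only WT embryo within the KO range. The log2 fold change of *TFAP2A* was -1.34 (standard error 0.50, 95% interval -2.44 to -0.25), with means of 8.28 ± 3.97 TPM (SD, n = 5) for WT and 2.83 ± 2.03 TPM (SD, n = 4) for KO embryos.

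Of the 9 members tested, *TFAP2A* alone had an unadjusted limma p-value under 0.05, of 0.0206, and its adjusted p was 0.745 (range 0.529 to 0.999 over all alternative settings, limma). The exact permutation test over embryos gave p = 0.0635 (two-sided, smallest possible p = 0.0159). Over all genes tested, 5.90% had an unadjusted p-value under 0.05. The unadjusted p-value of *TFAP2A* was 0.0751 from limma without TE_4, 0.0506 without WT_2 and 0.00687 without WT_3, and the log2 fold change without TE_4 was -0.90. Without WT_3, the ranges of WT and KO no longer overlapped. Without both WT_4 and TE_4, the embryos lowest in *CDX2*, the log2 fold change was -0.99 (unadjusted p = 0.0720 from limma).

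*KLF5* differed by 1.41 times between the lowest and highest WT embryo, at 158, 170, 171, 222 and 171 TPM, and lay in 2 pairs among KO embryos, at 99.2 TPM in TE_1 and 99.1 TPM in TE_3 and at 235.5 TPM in TE_2 and 235.4 TPM in TE_4. Thus 2 KO embryos fell short of and 2 exceeded all WT embryos, a pattern that 4.12% of all genes tested share, and the means of both genotypes were close (log2 fold change -0.21, 95% interval -0.87 to 0.45, adjusted p = 0.982 from limma). TE_1 and TE_2 had the lowest and highest median-of-ratios size factors, 0.776 and 1.26. After division by these factors *KLF5* was at 148, 175, 152, 222 and 163 TPM in WT and at 128, 186, 103 and 224 TPM in KO embryos. The pattern was then lost, with 2 KO embryos below and 1 above the WT range (2 and 0 with quantile normalization), and the SD of log2 values in KO fell from 0.72 to 0.51.

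*MSX2*, a homeodomain factor of the BMP response, was at 121, 106, 78.2, 78.7 and 111 TPM in WT and at 63.8, 175, 109.9 and 125 TPM in KO embryos, with 1 KO embryo below and 2 above the WT range (log2 fold change 0.19, 95% interval -0.44 to 0.82, adjusted p = 0.982 from limma). *DLX3*, a homeodomain factor of the placental trophoblast, was at 16.5, 6.25, 11.9, 9.08 and 7.78 TPM in WT and at 3.11, 10.2, 11.6 and 2.20 TPM in KO embryos. TE_1 and TE_4 were below every WT embryo and the other 2 KO embryos within the WT range, with a log2 fold change of -0.72 (95% interval -1.73 to 0.29, adjusted p = 0.916 from limma). The unadjusted limma p of *DLX3* was 0.148, and 0.0495 without TE_3.

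*HAND1* and *EOMES* were at or close to 0. *HAND1*, a basic helix-loop-helix factor of later trophoblast and mesoderm, was listed at 0 in WT_1, TE_1 and TE_3, at 0.0902, 0.243, 0.418 and 0.314 TPM in WT_2 to WT_5, at 0.260 TPM in TE_2 and at 1.73 TPM in TE_4. *EOMES* was listed at 0 in WT_1, WT_4 and all 4 KO embryos, and at 0.228, 0.0424 and 0.0351 TPM in WT_2, WT_3 and WT_5. An absence of *EOMES* in KO embryos cannot be told apart from the near absence in WT at an unknown depth. The log2 fold change of *HAND1* was 0.18 (95% interval -0.42 to 0.77, adjusted p = 0.982 from limma) and rested on TE_4, without which it was -0.16.

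**Figure D2:**
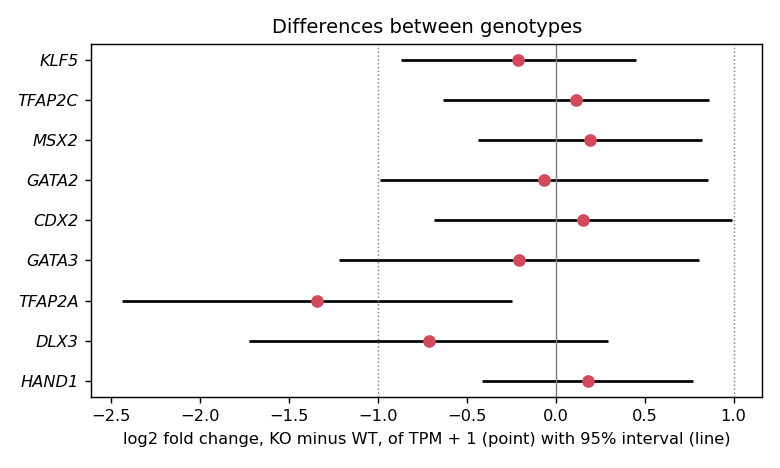
Log2 fold change of TPM + 1 (KO minus WT, x axis) of the 9 members tested (y axis), with the 95% interval from limma as a line and dotted lines at a change of 1 log2 unit. The interval of *TFAP2A* lies below 0 and those of the other 8 include 0.

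Across the members, 0 of the 9 tested had an adjusted p-value under 0.05 with an absolute log2 fold change above 1 from limma, against 3 genes of 14599 (0.0205%). Non-overlapping WT and KO ranges were found in 0 of the 9 members and in 2.03% of all genes. The members had a higher mean in KO in 4 cases and a lower mean in 5, and their median log2 fold change was -0.066, beside -0.046 over all genes tested. The intervals were wide: for *CDX2*, a TPM + 1 in KO between 0.622 and 1.99 times that in WT was within the 95% interval, for *GATA3* between 0.430 and 1.75 times and for *KLF5* between 0.547 and 1.37 times.

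The order of levels, taken from the WT medians, held within embryos at 5 of the 9 steps. Neighbours in the order of WT medians were compared within embryos by an exact sign-flip permutation test over the 9 embryos (two-sided, smallest possible p = 0.00391 where all 9 differ), which was not adjusted for the 9 comparisons. The 5 WT embryos both set the order and entered the test, so the p-values are not independent of the order. Over the 5 WT embryos alone the smallest possible p of this test was 0.0625. *MSX2* was above *GATA2*, *GATA2* above *CDX2*, *GATA3* above *TFAP2A* and *DLX3* above *HAND1* in 9 of 9 embryos (exact p = 0.00391 for each). *KLF5* was above *TFAP2C* in 8 of 9 embryos, by 0.50 log2 units on average (exact p = 0.0117), TE_3 being the exception. In the KO embryos, which did not set the order, the mean differences at these 5 steps were 0.87, 0.84, 3.03, 2.27 and 0.32 log2 units, in the sequence named. *TFAP2C* and *MSX2* did not differ beyond their spread (exact p = 0.215), nor did *CDX2* and *GATA3* (higher *CDX2* in 7 of 9 embryos, exact p = 0.414), *TFAP2A* and *DLX3* (exact p = 0.109) or *HAND1* and *EOMES* (exact p = 0.0625). Both genes of the last pair were at 0 in 3 embryos, so that the smallest possible p for that step was 0.03125. In the pair *TFAP2A* and *DLX3*, *TFAP2A* had the higher WT median but *DLX3* was higher in 6 of 9 embryos.

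With all embryos included, the members varied more among KO than among WT embryos, as most genes did. The SD of log2(TPM + 1) was higher in KO than in WT for 9 of the 9 members tested and for 70.1% of all genes tested. Without TE_4 it was higher in KO for 5 of the 9 members, and lower for *CDX2*, *GATA2*, *TFAP2A* and *HAND1*, while the share of all genes was 66.05%. With size factors it was higher for 7 of the 9, the SD of *CDX2* being 0.63 in both genotypes and that of *MSX2* 0.31 in both. Its median over these members was 0.50 in WT and 0.75 in KO, and over all genes 0.35 in WT and 0.52 in KO. On the scale of log2(TPM + 1), the most variable member in WT was *TFAP2A* (SD 0.75, at the 88.9 percentile of all genes) and the least variable was *KLF5* (SD 0.19, at the 14.5 percentile). In KO the SD was 1.04 for *GATA3*, 1.00 for *DLX3*, 0.95 for *TFAP2A* and 0.93 for *GATA2*, at the 90.6, 89.3, 87.4 and 86.1 percentile, and 0.72 for *KLF5*, at the 71.6 percentile. The values of *GATA2* and *TFAP2A* rested on TE_4, without which their SDs in KO were 0.36 and 0.43, below the 0.57 and 0.75 of WT. With a pseudocount of 0.1 TPM the order changed. The SD was then 0.96 in WT and 1.99 in KO for *HAND1*, which is near 0 TPM, and 0.86 and 1.61 for *TFAP2A*. For *GATA3* it was 0.61 and 1.08.

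The difference in spread was tested per member by permuting the absolute deviations from the genotype median over embryos. It was past 0.05 for *KLF5* (exact permutation test, two-sided, p = 0.0159) and *DLX3* (exact p = 0.0476), with a larger spread in KO, and for 10.7% of all genes tested. The median of the 5 WT embryos is itself one of them, which makes 1 WT deviation 0 by construction. With scaled deviations from the genotype mean, the p-values were 0.0159 for *KLF5* and 0.0317 for *DLX3* (exact permutation test, two-sided). After scaling by size factors they were 0.0794 and 0.127, so that neither call held (exact permutation test, two-sided). Without any 1 of the KO embryos neither gene passed, but with 3 embryos the median is again 1 of them. An exact p under 0.05 for a larger spread in KO could then not be reached by any gene, so these omissions decide nothing. The SD of *KLF5* was 0.72 in KO and 0.19 in WT. Its KO values lay in near-equal pairs, so leaving out any 1 KO embryo keeps this SD nearly unchanged by construction. The SD of *DLX3* in KO was 0.89 to 1.09 with 1 KO embryo left out, against 0.50 in WT.

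**Figure D3:**
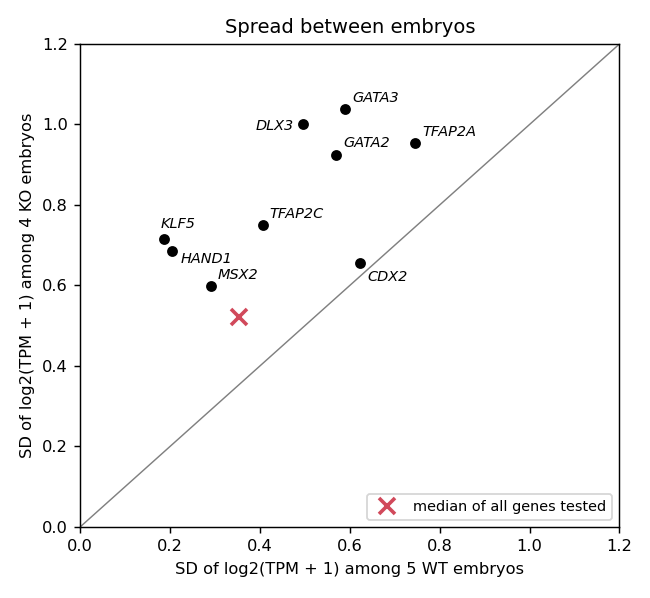
SD of log2(TPM + 1) among the 4 KO embryos (y axis) against that among the 5 WT embryos (x axis) for the 9 members tested (black points), with the line of equality and the median of all genes tested (red cross). All 9 points lie above the line, as do 70.1% of all genes, but without TE_4 only 5 of the 9 would; *KLF5* and *HAND1* lie farthest to the left.

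The members did not rise and fall as 1 group from embryo to embryo. Pearson's r of log2(TPM + 1) over the 9 embryos was at least 0.7 in 4 of the 28 pairs of the 8 members with a median above 1 TPM, beside 5.79% of all pairs of genes above that level, and at or below -0.7 in 0 pairs, beside 2.11%. The median r of the 28 pairs was 0.38. Pairs share their libraries and are not independent of each other, and the p-values below are for single pairs and are not adjusted for the 45 pairs of all members that were computed.

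The 4 pairs linked *CDX2*, *GATA2*, *GATA3* and *DLX3*. *CDX2* and *GATA2* had r = 0.89 and Spearman's rho = 0.82 (exact permutation p = 0.000967 and 0.0108, n = 9), and r was 0.79 without WT_4 and TE_4, the embryos farthest from the median of *CDX2*. *GATA2* and *GATA3* had r = 0.88 and rho = 0.88 (exact permutation p = 0.00270 and 0.00308, n = 9), with r = 0.61 without the same embryos. *CDX2* and *GATA3* had r = 0.76 and rho = 0.83 (exact permutation p = 0.0166 and 0.00827, n = 9), and r fell to 0.39 without them, so that this relation rested on WT_4 and TE_4. *GATA3* and *DLX3* had r = 0.75 and rho = 0.70 (exact permutation p = 0.0214 and 0.0433, n = 9), with r = 0.82 without WT_4 and TE_4 and 0.58 without TE_4 alone. *GATA3* left a gap between 3 embryos (WT_4, TE_1 and TE_4, at 16.5 TPM or less) and the other 6, all at 32.2 TPM or more. With values centred on the mean of each genotype, r was 0.90 for *CDX2* and *GATA2*, 0.88 for *GATA2* and *GATA3*, 0.79 for *CDX2* and *GATA3* and 0.78 for *GATA3* and *DLX3*. Among WT and among KO embryos alone, r was 0.91 and 0.93 for *CDX2* and *GATA2* and 0.85 and 0.90 for *GATA2* and *GATA3*. It was 0.78 and 0.85 for *CDX2* and *GATA3*. For *GATA3* and *DLX3* it was 0.22 among WT and 0.999 among KO embryos, so that this relation was not seen within WT. Without WT_4 and TE_4, *MSX2* had r = 0.79 with *CDX2*, 0.72 with *GATA2* and 0.77 with *GATA3*, against 0.53, 0.27 and 0.44 with all embryos.

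The next highest values were those of *TFAP2C*. It had r = 0.68 with *MSX2* and r = 0.67 with *KLF5* (rho 0.68 and 0.60, exact permutation p for r of 0.0434 and 0.0492, n = 9). Both relations rested on TE_1 and TE_2, without which r was 0.068 and 0.33. Among WT embryos alone r was -0.17 with *MSX2* and -0.095 with *KLF5*, and among KO embryos alone 0.97 and 0.90. Between *KLF5* and *GATA3*, r was -0.27 and rho -0.30 (exact permutation p = 0.486 and 0.437, n = 9), and among WT embryos WT_4 was the highest in *KLF5* and the lowest in *GATA3*. With *CDX2* and *GATA2*, r of *KLF5* was -0.27 and -0.45. Without WT_4 and TE_4, r of *KLF5* was 0.28 with *CDX2*, 0.13 with *GATA2* and 0.37 with *GATA3*, so that the negative sign rested on these embryos. *TFAP2A* was nearest to *GATA2* (r = 0.59, rho = 0.20, exact permutation p = 0.0960 and 0.613, n = 9), and r was 0.17 without WT_4 and TE_4. Centred on the genotype means, *TFAP2A* had r = 0.78 with *CDX2* and 0.75 with *GATA2*, and *TFAP2C* had r = 0.72 with *KLF5*.

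**Figure D4:**
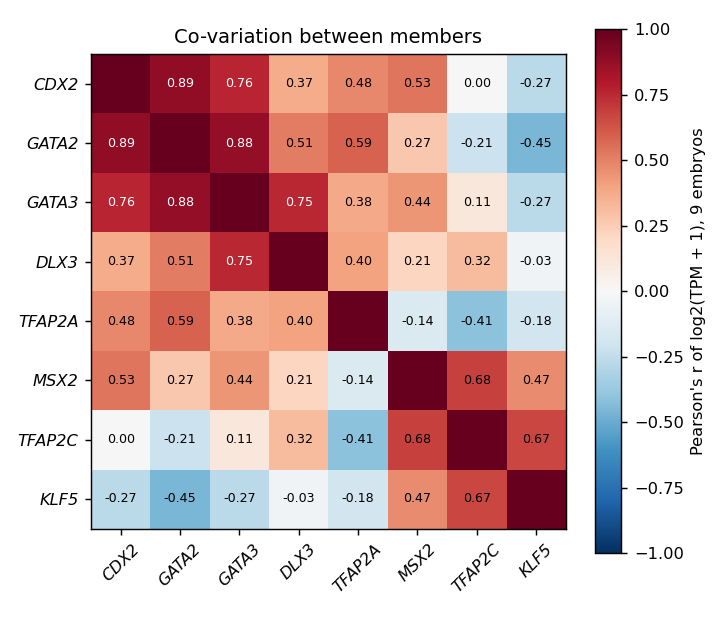
Pearson's r of log2(TPM + 1) over the 9 embryos for each pair of the 8 members with a median above 1 TPM, in rows and columns, coloured from blue (-1) to red (1). *CDX2*, *GATA2* and *GATA3* form a block between 0.76 and 0.89, and *KLF5* is below 0 with each of these 3, but above 0 with each when WT_4 and TE_4 are left out.

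These differences appear as ratios within embryos, which were picked after the values were seen and are given without a test. *KLF5* was 15.4 times *GATA3* in WT_4 and 20.6 times in TE_4, and between 1.87 and 6.003 times in the other 7 embryos. *MSX2* was 4.61 times *CDX2* in WT_4 and 7.001 times in TE_4, and between 1.96 and 3.90 times in the others. *TFAP2C* was 7.15 to 47.0 times *TFAP2A* in WT embryos and 12.4, 64.5, 41.4 and 492 times in TE_1 to TE_4. A WT and a KO embryo thus shared the widest gap between *KLF5* and *GATA3*.

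The genes of the TE epithelium (28 genes of keratins, junctions, polarity, transport and surface proteins, all tested) were set beside the members, on the same libraries. They include *KRT8* and *KRT18*, the keratins of the early epithelium, and *OCLN* and *TJP1*, components of its tight junctions. Their mean log2(TPM + 1) was lowest in WT_4 (5.88), TE_4 (6.29) and TE_1 (6.33), the embryos with the lowest *GATA3*, and highest in WT_1 (7.26). Of the 8 members with a median above 1 TPM, 3 had r of at least 0.7 with this mean, beside 8.70% of all genes above that level. *CDX2* had r = 0.80 and rho = 0.87 (exact permutation p = 0.0101 and 0.00451, n = 9), with r = 0.70 without WT_1 and WT_4, the embryos farthest from the median of the epithelium genes. *GATA3* had r = 0.82 and rho = 0.67 (exact permutation p = 0.00758 and 0.0589, n = 9) and r = 0.83 without them. *GATA2* had r = 0.74 and rho = 0.58 (exact permutation p = 0.0224 and 0.108, n = 9) and r = 0.76 without them. *KLF5* had r = -0.080 and *TFAP2C* r = 0.20 with the epithelium genes.

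**Figure D5:**
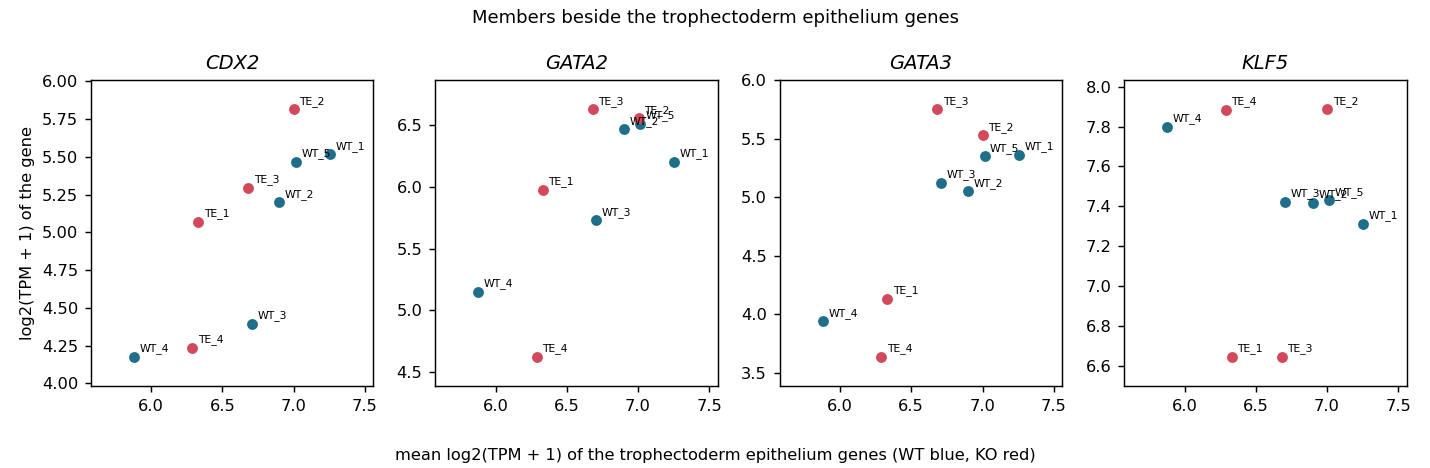
log2(TPM + 1) of *CDX2*, *GATA2*, *GATA3* and *KLF5* (y axes, not starting at 0) against the mean log2(TPM + 1) of the 28 TE epithelium genes (x axis) in each embryo, WT in blue and KO in red. In the first 3 panels WT_4 and TE_4 lie at the lower left; in the *KLF5* panel both lie at the upper left.

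The markers of the other cells of the blastocyst were set beside the members in the same way, in 48 relations in all with lists, *TEAD4* and the number of genes detected, chosen after the data were seen and not adjusted. The mean of the epiblast and ICM markers had negative r with *CDX2* (r = -0.65, rho = -0.67, exact permutation p = 0.0567 and 0.0589, n = 9), *GATA2* (r = -0.55) and *GATA3* (r = -0.55), and was highest in WT_4. Without WT_1 and WT_4, r with *CDX2* was -0.42. The summed TPM of these markers was 1200 to 3153 in WT and 1862 to 2983 in KO embryos, of which *POU5F1* made up 773 to 1693 and 1352 to 2142 TPM. Of the 17 of these markers tested, 7 were higher and 10 lower in KO, with a median log2 fold change of -0.26. The summed TPM of hypoblast markers was 1419 to 2191 in WT and 611 to 2268 in KO embryos, the lowest in TE_4. By their mean log2(TPM + 1), however, WT_1 was the lowest embryo (2.88) and TE_4 the highest of the KO embryos (3.48). *DLX3* was closest to the ruminant trophoblast products (r = 0.74, rho = 0.62, exact permutation p = 0.0212 and 0.0857, n = 9, and r = 0.70 without TE_2 and TE_4). The level of *TEAD4* gave r between -0.30 and 0.35 with the 8 members. Without WT_1 and TE_3, r was 0.76 with *GATA2*, 0.73 with *TFAP2A*, 0.72 with *GATA3* and 0.66 with *DLX3*, and between -0.45 and 0.42 with the others. The part of cell composition in the differences between embryos was not tested.

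The gene nearest to each member was not another member. Among the 11219 genes with a median above 1 TPM, the highest r over the 9 embryos was that of *ARMC7* for *CDX2* (0.95), *ANKRD9* for *GATA2* (0.97), *TERT* for *GATA3* (0.98), *PTGR1* for *TFAP2A* (0.95), *CEBPZ* for *TFAP2C* (0.97), *CRYZ* for *MSX2* (0.98) and *METTL25B* for *DLX3* (0.97). For *KLF5* it was ENSBTAG00000051367 (0.99), which is listed without a symbol. With 9 embryos and this number of genes, such values are a description only. *GATA2*, the nearest member to *CDX2*, was preceded by 35 other genes, and *TFAP2C*, the nearest member to *KLF5*, by 1992.

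Relatives of the members are of interest because paralogues can share binding sites. Of 33 other members of the same families, 26 were tested, 10 of them higher and 16 lower in KO, and 0 had an adjusted p-value under 0.05 from limma. An unadjusted p-value under 0.05 was found for 3, *GATA4* and *DLX5*, which were lower in KO, and *CDX1*, which was higher, at 1.90 TPM or less. The share past it over all genes tested was 5.90% (limma). The most abundant relatives were *GATA6*, a hypoblast factor, with means of 83.8 ± 6.30 (WT, SD, n = 5) and 72.6 ± 52.4 TPM (KO, SD, n = 4), and *KLF6*, at 58.2 ± 20.2 and 61.9 ± 36.2 TPM. *DLX4*, with means of 22.1 ± 9.34 (WT, SD, n = 5) and 16.5 ± 5.16 TPM (KO, SD, n = 4), was above *DLX3* on average. *MSX1* (4.66 and 4.98 TPM), *CDX4* (2.53 and 2.21 TPM), *TBX21* (1.40 and 1.41 TPM), *TFAP2B* (0.997 and 0.739 TPM) and *HAND2* (0.886 and 1.25 TPM) were low in both genotypes.

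Of 30 other TFs and cofactors of the trophoblast, 29 were tested, 8 higher and 21 lower in KO, with a median log2 fold change of -0.18. An unadjusted p-value under 0.05 was found for 6 (1 higher, 5 lower), and 0 passed the adjustment. The lowest p-value was that of *MYCN*, a MYC family factor, with means of 28.1 ± 6.53 (WT, SD, n = 5) and 13.1 ± 4.65 TPM (KO, SD, n = 4) and no overlap between genotypes (log2 fold change -1.08, adjusted p = 0.525 from limma). The ranges of 2 other genes did not overlap either, those of *YAP1*, the coactivator bound by TEAD4, at 12.1 ± 1.73 and 6.68 ± 2.32 TPM (adjusted p = 0.727 from limma), and of *VGLL3*, a cofactor of TEAD proteins, at 0.196 to 0.771 TPM in WT and listed at 0 to 0.174 TPM in KO (adjusted p = 0.727 from limma). *ID2*, an inhibitor of helix-loop-helix factors, had means of 76.2 ± 36.1 and 33.8 ± 26.6 TPM with overlapping ranges (adjusted p = 0.716 from limma). Of the 28 TE epithelium genes, 12 were higher and 16 lower, 2 had an unadjusted p-value under 0.05 (*DSC2*, a desmosomal cadherin, and *OCLN*, a tight junction protein, both lower in KO) and 0 passed the adjustment (limma).

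Of 16 ruminant trophoblast products, 12 were tested, 3 higher and 9 lower in KO, with a median log2 fold change of -0.60, beside -0.046 over all genes tested. An unadjusted p-value under 0.05 was found for 4, all lower in KO, beside 5.90% of all genes tested, and 0 passed the adjustment (limma). They were *CALB1*, a calcium-binding protein, with means of 10.02 ± 6.40 (WT, SD, n = 5) and 0.888 ± 0.360 TPM (KO, SD, n = 4; log2 fold change -2.40, adjusted p = 0.0839 from limma), the pregnancy-associated glycoprotein genes *PAG2* (175 ± 90.5 and 45.8 ± 43.8 TPM, adjusted p = 0.618 from limma) and *PAG11* (10.2 ± 7.68 and 1.05 ± 1.21 TPM, adjusted p = 0.611 from limma), and *SSLP1*. *CALB1* did not overlap between genotypes, as was the case for 2.03% of all genes tested. *PAG* genes form a large family of close copies, so their single values are uncertain. Among the markers of other cells, 1 of 17 epiblast, 2 of 16 hypoblast, 0 of 11 oocyte and 1 of 10 cumulus and granulosa genes tested (*CYP11A1*, lower in KO), and 2 of 15 housekeeping genes (*PGK1* and *GAPDH*, lower in KO), had an unadjusted p-value under 0.05, and 0 passed the adjustment (limma). Of the 15 housekeeping genes, 4 were higher and 11 lower in KO, with a median log2 fold change of -0.12.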

How the data were processed

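Single D8 blastocysts (5 WT, 4 KO) were sequenced by the authors, 1 library each. The deposited table holds TPM per gene, made by the authors with FastQC, fastp and kallisto per the labels. Versions, annotation and genome build are not given in the sources used here, and no coordinates or sequences are given. The study's methods describe SMART-Seq v4 PLUS libraries and the labels another kit, and the values do not show which was used. The 9 columns were assigned to a genotype by their names. The sources used here do not tie a column to a deposited sample within its genotype.

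Genes with a median above 0.1 TPM (14599) were fitted with limma 3.58.1 in R 4.3.3 on log2(TPM + 1) with a variance trend and Benjamini-Hochberg adjustment over all of them. Genes were called when the adjusted p-value was under 0.05 with a log2 fold change beyond 1 in either direction. The count-based test of the study could not be run on TPM. Single values were compared by exact permutation over embryos, enumerated in full under Python 3.11.15 (pandas 2.3.3, numpy 2.4.6), with matplotlib 3.10.9 for plots. For differences between genotypes the smaller 1-sided p was doubled. Relations among embryos and ratios were chosen after the data were seen. The fit was tested on simulated data with independent genes and the WT spread of each gene in both genotypes. That test does not cover the larger spread among KO embryos.

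Members and lists were chosen with earlier results of these data known. Named outside the members are the edited gene, up to 4 genes per list by smallest p among those with an unadjusted p-value under 0.05 or no overlap, the most abundant relative of each family, and the gene nearest to each member. Other genes were named after their values were seen. Alternatives were another pseudocount, other filters, scalings and limma settings, and leaving out embryos.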

Additional observations from a re-analysis of the deposited data

Results flagged for a closer look

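In the values of each member and of *TEAD4* within each genotype, 22 groups in all, 3 embryos lay farther from the others than the 95% critical value of Dixon's test allows, and chance flags about 1 in 20 groups. *KLF5* in WT_4, at 221.9 TPM, was above the other WT embryos (gap to range 0.788). *HAND1* in TE_4, at 1.73 TPM, was above the other KO embryos (gap to range 0.849). *EOMES* in WT_2, at 0.228 TPM, was above the other WT embryos (gap to range 0.814), at a level where the number of reads is unknown.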

How the results depend on the processing

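The number of genes called between KO and WT, 3 with all embryos, was 8 with a pseudocount of 0.1 TPM, 8 with medians above 1 TPM, 5 with size factors, 6 with quantile normalization, 5 without the variance trend, 6 with robust limma, 0 without WT_4 and TE_4 and 0 to 10 when 1 embryo was left out. No member was among them. Members with an unadjusted limma p-value under 0.05 numbered 1, 0 without WT_4 and TE_4, and 0 (without WT_2 or TE_4) to 2 (without TE_3) when 1 embryo was left out. The signs of 6 small log2 fold changes depended on single embryos: leaving out 1 embryo gave -0.083 to 0.44 for *CDX2*, -0.29 to 0.37 for *GATA2*, -0.53 to 0.17 for *GATA3*, -0.16 to 0.42 for *TFAP2C*, -0.16 to 0.33 for *HAND1* and -0.023 to 0.46 for *MSX2*. *CDX2* was at -0.12 with array weights and *GATA2* at 0.16 without WT_4 and TE_4. *TFAP2A*, *KLF5* and *DLX3* were negative in all 18 alternatives, but with 1 embryo left out *KLF5* ran from -0.42 to -0.0041 (without TE_3), *DLX3* from -1.03 to -0.37 and *TFAP2A* from -1.64 to -0.90. Members whose ranges did not overlap numbered 0 to 1 when 1 embryo was left out. The 9 members with a larger SD in KO became 5 to 9 with 1 embryo left out, 5 being without TE_4. The 2 members with an exact p under 0.05 for the difference in spread became 0 with size factors or quantile normalization, and 1 to 3 with 1 WT embryo left out. The count was 0 without any 1 KO embryo and without WT_4 and TE_4. With 3 KO embryos, however, the test could not reach 0.05 for a larger spread in KO. The 4 pairs with r of at least 0.7 became 7 with values centred on genotype, 4 of them the same pairs, and 7 without WT_4 and TE_4, 2 of them the same. The causes were not tested. Leaving out WT_4 and TE_4, and the mean-centred spread, were chosen after seeing the data. No paired analysis was possible because each library is a separate embryo and the sample titles share no numbers that pair them.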
